A study of Mus musculus with 36 samples.

Results

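A set of 10 DNA replication fork genes was examined in the lungs of mice exposed to crude oil, to oil dispersants or to both: the polymerase genes Pola1, Prim1, Pold1 and Pole, the clamp genes Pcna and Rfc5, the lagging strand genes Fen1 and Lig1, and the ribonucleotide reductase genes Rrm1 and Rrm2. They were chosen by symbol, and all 10 of 10 were found among the 17716 genes listed in both count tables. RNA from the lungs of 36 wild-type C57BL/6 mice had been sequenced, 3 female and 3 male mice in each of 6 groups. The groups received saline (control), oil, Corexit 9500, Corexit 9527, 9500+oil or 9527+oil by oropharyngeal aspiration on days 0, 7 and 13, and the left lung was collected on day 14. Each agent had been mixed into buffered saline. Of oil alone the saline phase was given, the mixtures with dispersant were given whole, and all were diluted to 0.1. The mice were bought at 7 weeks of age and kept for 1 week before the first dose. The oil was crude oil of the Macondo well, and Corexit 9500 and Corexit 9527 are commercial dispersants that break up oil slicks. No group carried an engineered allele. Female and male mice were counted in separate tables.

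DNA is copied at a fork by polymerases that can only extend a strand, so each new piece starts from a primer. Primase and polymerase alpha lay down these primers, polymerase epsilon is the main polymerase of the leading strand and polymerase delta that of the lagging strand, and a sliding clamp, placed by a clamp loader, holds the polymerases on DNA. Flap endonuclease and DNA ligase I trim and join the short pieces of the lagging strand, and ribonucleotide reductase makes the deoxynucleotides that all of them use. In the adult lung few cells divide, and these genes are known to be transcribed mainly in cells that enter or pass through S phase, in part through E2F transcription factors.

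Because such genes share this mode of control, their promoters were searched for E2F letters and for the CCAAT box. RefSeq (GRCm38.p6) promoters, 250 bases before to 50 bases after each start site, were matched by symbol for 9 of the 10 genes, all but Pole. One of the letter runs TTGGCGC or TTCCCGC or TTGCCGC or TTCGCGC, on either strand, was found for 7 of the 9 genes (Pola1, Prim1, Pold1, Fen1, Lig1, Rrm1 and Rrm2), against 10.9% of all 27025 genes with a promoter of that length. With 1 further T before these letters the runs were found for 3 of the 9 genes (Pola1, Pold1 and Lig1), against 2.6% of all genes. CCAAT on either strand was found for 5 of the 9 genes (Pola1, Prim1, Pcna, Rrm1 and Rrm2), against 41.1% of all genes. A letter match is not a shown binding site. The upstream sequences of 4 genes are given 5′ to 3′ on the strand of the gene, since 3 of them (Prim1, Rrm1, Rrm2) passed the test described below and Pola1 held the most matches. Capitals mark the E2F and CCAAT letters, which read GCGGCAA or GCGCCAA or GCGGGAA or ATTGG where the match is on the other strand, and the E2F and CCAAT letters of Prim1 share 1 base.
Rrm1, chr7:102441575-102441694, plus strand, bases -120 to -1 from the start site: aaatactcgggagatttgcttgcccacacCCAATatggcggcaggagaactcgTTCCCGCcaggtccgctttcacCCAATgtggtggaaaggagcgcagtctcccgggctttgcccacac
Rrm2, chr12:24708004-24708240, plus strand, bases -250 to -14: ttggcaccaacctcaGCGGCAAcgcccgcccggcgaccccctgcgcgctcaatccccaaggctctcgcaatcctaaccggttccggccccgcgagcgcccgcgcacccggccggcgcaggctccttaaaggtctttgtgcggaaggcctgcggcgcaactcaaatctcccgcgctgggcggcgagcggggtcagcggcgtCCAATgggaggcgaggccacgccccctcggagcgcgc
Pola1, chrX:93632156-93632335, minus strand, bases -180 to -1: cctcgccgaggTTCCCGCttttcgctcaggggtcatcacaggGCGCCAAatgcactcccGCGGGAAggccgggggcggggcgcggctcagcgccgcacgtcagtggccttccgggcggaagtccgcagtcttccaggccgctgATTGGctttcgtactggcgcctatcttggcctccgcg
Prim1, chr10:128015185-128015214, plus strand, bases -30 to -1: tggaggcctgtcttgTTCCCGCCAATtctc

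Library totals ran from 17501180 to 30011557 counts. Levels are given as CPM, counts per 1000000 of the TMM-scaled library size. In 4 of the 36 libraries, all of female mice (saline mouse 3, oil mouse 6, 9527 mouse 11 and 9500+oil mouse 14), 20.67% to 45.09% of the counts were mitochondrial, against 5.27% to 11.34% in the other 32. In these 4 libraries the more GC-rich replication genes tended to be lower than in the other mice of the group, and the more AT-rich ones higher. Exceptions were Lig1 (53.6% GC), which differed by -0.01 to 0.61 on the log2 scale, and Rrm2 (46.0% GC), which had 8 counts in saline mouse 3. Pold1, with 61.0% GC the most GC-rich of the 10, had 0 counts in saline mouse 3 and 3.44 CPM in 9527 mouse 11, against a mean of 20 and 27.5 CPM in the other mice of those groups. Fen1 (53.8% GC) stood at 1.11 CPM in 9527 mouse 11, against 14.3 CPM in the other mice of the group. Pola1 (41.5% GC), the most AT-rich member, was instead highest of its group in each of the 4 libraries, by 0.96 to 1.36 on the log2 scale. The comparisons over both sexes are therefore also given without them, a setting chosen after seeing the data.

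**Figure D1:**
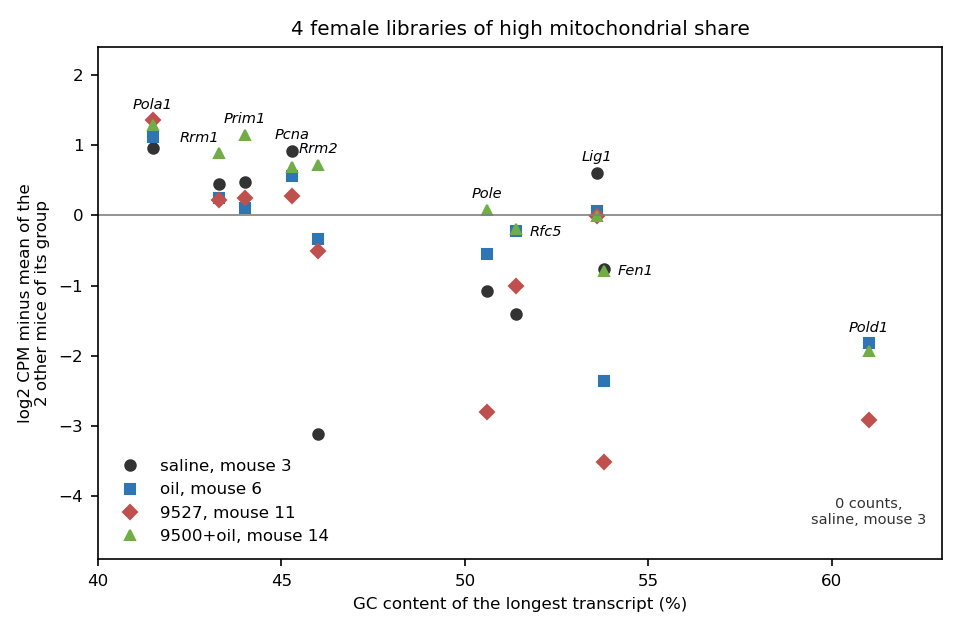
Difference in log2 CPM between each of the 4 female libraries of high mitochondrial share and the mean of the other 2 mice of its group (vertical axis), against the GC content of the gene's longest transcript in percent (horizontal axis), for the 10 genes. Pola1 at 41.5% GC lies above 0 in all 4 libraries, and Pold1 at 61.0% GC lies below 0 in all 4. Pold1 had 0 counts in saline mouse 3, and its value there, -7.82, lies below the drawn axis and is given as words.

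Markers of lung were present in every library. Summed over Sftpc, Ager and Scgb1a1, markers of alveolar and airway epithelium, the level lay between 10700 and 40500 CPM in every library. Markers of thymocytes, another organ rich in dividing cells, summed to 0 to 12.0 CPM, and Rag2 was not listed. Summed macrophage markers (Marco, Cd68, Mrc1 and Siglecf) lay at 173 to 194 CPM in male saline mice and at 283 to 343 CPM in male 9527 mice, without overlap. In female mice they overlapped, at 228 to 486 CPM with saline and 299 to 540 CPM with 9527. Cd68, a lysosomal protein of macrophages, passed the test in male 9527 mice with a log2 fold change of 0.83 ± 0.11 (SE, adjusted p = 0.0468). Single markers of other cells also did not overlap between male 9527 and male saline mice, where 10.2% of all genes lay wholly above saline and 9.16% wholly below. Of the macrophage markers, 3 of 4 were above saline (Marco, Cd68 and Mrc1). Both endothelial markers were below it, Cldn5 with 223 to 225 against 278 to 389 CPM and Pecam1 with 726 to 825 against 833 to 1080 CPM. Scgb1a1, the secretory protein of club cells, was below it with 11400 to 13800 against 14900 to 19800 CPM, as were Bcl6, Myl7, Rag1 and S100a9. In female mice S100a9, a neutrophil protein, was the single marker without overlap outside the division list, again below saline, as were 1.19% of all genes. Between 9527+oil and 9527, Mrc1 was lower and Cldn5 higher without overlap in both sexes, where 3.09% of all genes lay wholly below and 2.87% wholly above. What part these cells had in the values below was not tested. In whole lung, more cells of a type and more RNA per cell cannot be told apart.

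In saline mice Pcna was by far the most abundant of the 10. Divided by the length of the longest transcript, its level was 45.4 ± 0.915 CPM per kilobase in female mice (SD, n = 2, without mouse 3) and 32.1 ± 1.63 CPM per kilobase in male mice (SD, n = 3). Pold1 came next in male mice with 7.03 ± 0.327 CPM per kilobase. Rrm1 (4.64 ± 0.96) and Lig1 (4.2 ± 0.511 CPM per kilobase) overlapped, and were followed by Fen1 (2.88 ± 0.102) and Rrm2 (2.42 ± 0.301 CPM per kilobase), which did not overlap. Rfc5, Prim1 and Pola1 lay between 1.29 and 1.98 CPM per kilobase, each overlapping its neighbour in this order. Pole was the lowest in both sexes, at 0.642 CPM per kilobase in female and 0.827 CPM per kilobase in male mice. The order of female saline mice was the same at its top and bottom, while Lig1, Rrm1 and Pold1 held ranks 2 to 4.

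**Figure D2:**
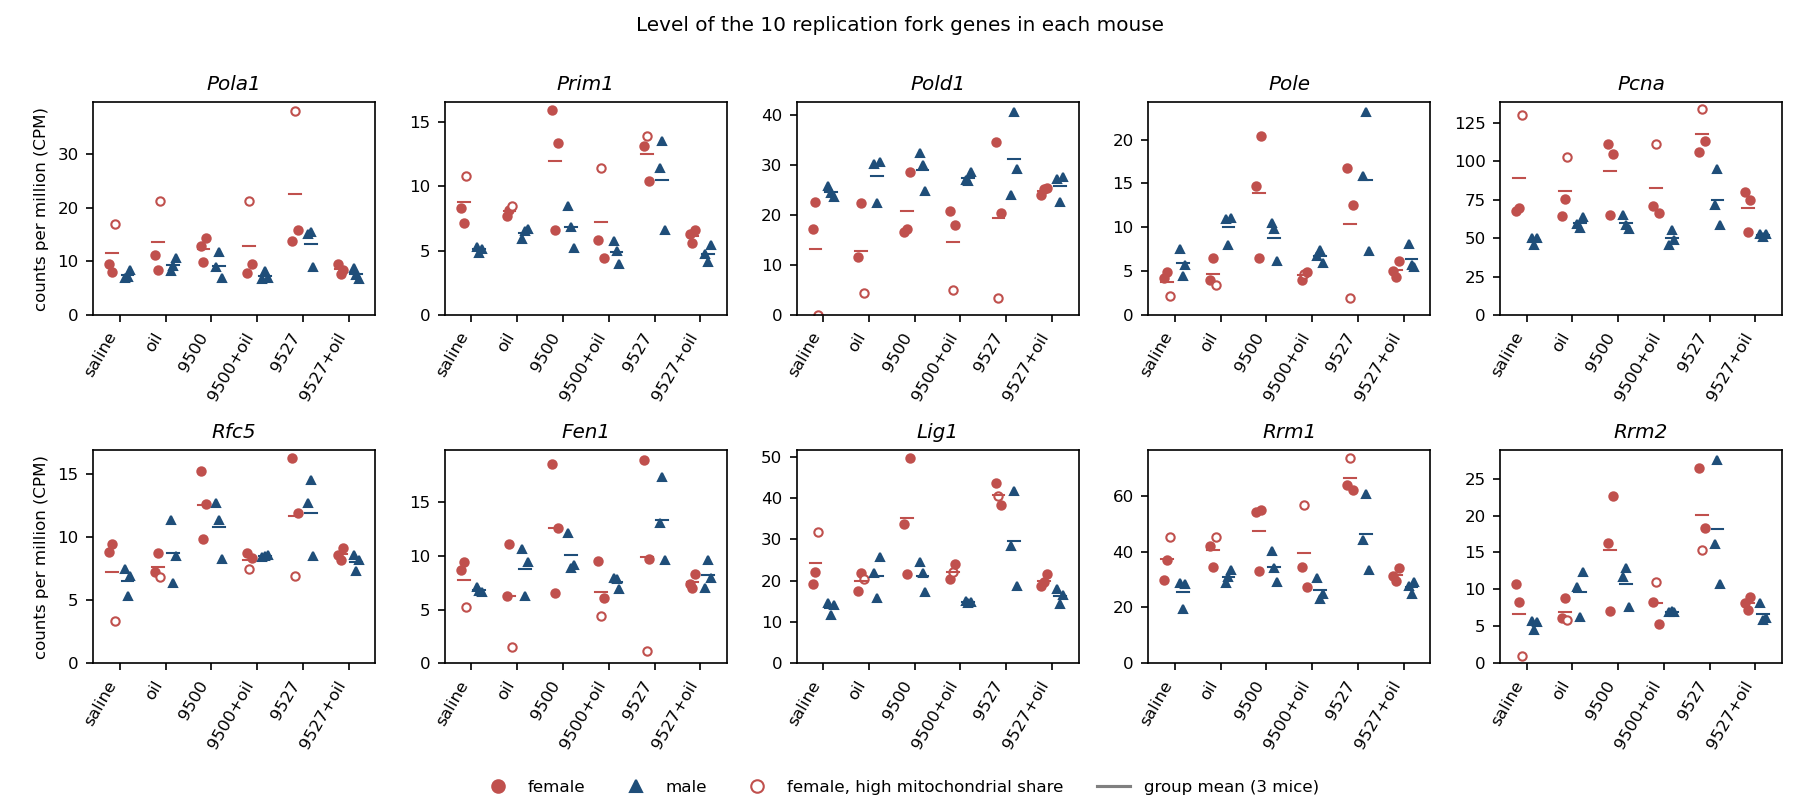
CPM (vertical axes, from 0) of the 10 genes in each of the 36 mice by treatment, with circles for female mice, triangles for male mice, open circles for the 4 libraries of high mitochondrial share and a line at the mean of each 3 mice. In male mice the mean with 9527 is the highest of the 6 groups for all 10 genes, and female 9527+oil mice have 7.23 to 8.93 CPM of Rrm2 against 15.4 to 26.4 CPM with 9527.

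The question of what Corexit 9527 did to these genes was addressed by comparing it with saline. All 10 genes had higher fitted levels with 9527, with log2 fold changes from 0.45 (Pold1) to 1.69 (Rrm2) and a median of 0.81, against a median of 0.01 over all genes tested. In edgeR's quasi-likelihood test over both sexes, 0 of 10 passed an adjusted p of 0.05, as did 0.0331% of all 15107 genes tested. At an unadjusted p under 0.05, 8 of 10 were higher (all but Pold1 and Fen1), against 2.27% of all genes. Without the libraries of high mitochondrial share, 8 of 10 passed an adjusted p of 0.05 (all but Pold1 and Fen1), against 2.25% of all genes, and the median log2 fold change was 0.86. When 1 mouse at a time was left out, 0 of 10 passed in each of the 12 fits (lowest adjusted p 0.0745).

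The largest log2 fold change from saline was that of Rrm2 (chr12:24708241-24714146), which encodes the small subunit of ribonucleotide reductase. This subunit carries the radical and is the subunit that limits the enzyme in dividing cells. It stood at 10.7, 8.25 and 1.00 CPM in the 3 female saline mice and at 26.4, 15.4 and 18.3 CPM in the 3 female 9527 mice. In male mice it stood at 5.73, 4.55 and 5.66 CPM with saline and at 16.2, 27.5 and 10.8 CPM with 9527. Every 9527 mouse was above every saline mouse of its sex. The log2 fold change was 1.69 ± 0.44 (SE, adjusted p = 0.56), and without the 4 libraries 1.56 ± 0.24 (adjusted p = 0.00938).

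Rrm1 (chr7:102441695-102469771) encodes the large subunit, which holds the active site. Its level was 29.9, 37.1 and 45.2 CPM in female saline mice and 63.9, 73.5 and 62.0 CPM in female 9527 mice. Male mice had 28.6, 19.3 and 28.3 CPM with saline and 44.3, 60.7 and 33.4 CPM with 9527. Here too the groups did not overlap in either sex, and the log2 fold change was 0.85 ± 0.19 (adjusted p = 0.384, the lowest of the 10). Lig1 (chr7:13277283-13311433), DNA ligase I, was the third gene without overlap in both sexes. It had 19.2, 22.2 and 31.7 CPM in female saline mice against 43.5, 40.5 and 38.3 CPM with 9527. In male mice 14.7, 11.6 and 14.0 CPM stood against 28.3, 41.7 and 18.6 CPM, and the log2 fold change was 0.94 ± 0.22 (adjusted p = 0.43). Such a lack of overlap in both sexes was seen for 3 of the 10 genes, against 0.848% of all genes. Without the 4 libraries, with 2 saline and 2 9527 mice left in female mice, it was seen for 8 of 10, against 4.15% of all genes. The exceptions were Pold1 and Pole.

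Pole (chr5:110286306-110337474), the catalytic subunit of polymerase epsilon, had the second largest log2 fold change, 1.42 ± 0.46 (adjusted p = 0.94). It stood at 7.57, 4.50 and 5.70 CPM in male saline mice and at 15.8, 23.2 and 7.35 CPM in male 9527 mice, so that the lowest 9527 mouse lay within the saline range. Female 9527 mice had 16.8, 2.00 and 12.5 CPM, the lowest being the library of high mitochondrial share, against 4.26, 4.94 and 2.13 CPM with saline. Without the 4 libraries its log2 fold change was 1.5 ± 0.27 (adjusted p = 0.019). Pola1 (chrX:93304767-93632155), the catalytic subunit of polymerase alpha, had a log2 fold change of 0.90 ± 0.31. Its female 9527 values of 13.8, 38.0 and 15.8 CPM include its highest level in the 36 mice, again in mouse 11, and without the 4 libraries the log2 fold change was 0.81 ± 0.16. Prim1 (chr10:128015168-128030037), the catalytic subunit of primase, had 8.34, 7.12 and 10.8 CPM in female saline mice, 13.1, 13.9 and 10.4 CPM in female 9527 mice, 5.27, 4.85 and 5.15 CPM in male saline mice and 11.4, 13.5 and 6.58 CPM in male 9527 mice.

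Pcna (chr2:132249162-132253314), the sliding clamp itself, had a smaller log2 fold change, 0.51 ± 0.20. It was 50.3, 45.9 and 49.9 CPM in male saline mice and 71.3, 95.1 and 58.4 CPM in male 9527 mice, without overlap. In female mice it was 68.0, 69.9 and 130 CPM with saline, the last value in the library of mouse 3, and 106, 134 and 113 CPM with 9527. Rfc5 (chr5:117378103-117389047), a small subunit of the clamp loader, had a log2 fold change of 0.78 ± 0.29. Fen1 (chr19:10199132-10204169), the flap endonuclease, had one of 0.66 ± 0.48, the wide error going with its 18.9, 1.11 and 9.65 CPM in the 3 female 9527 mice. Pold1 (chr7:44532746-44548849), the catalytic subunit of polymerase delta, differed least and with the widest error, 0.45 ± 0.76. With offsets for GC content Pold1 was not the lowest, with 0.67 against 0.5 for Fen1. Without female 9527 mouse 10 the log2 fold change of Pold1 was 0.13 and that of Fen1 0.33. In male mice, where no library had a high mitochondrial share, Pold1 was 25.8, 24.4 and 23.6 CPM with saline and 24.0, 40.6 and 29.2 CPM with 9527, and its log2 fold change was 0.35 ± 0.18.

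The comparison of 9527+oil with 9527 asked whether the genes differ when oil is given with the dispersant. It shares its 9527 mice with the comparison of 9527 with saline, so the higher and the lower levels are not independent results. Rrm2, Rrm1, Prim1 and Lig1 were lower with 9527+oil and passed an adjusted p of 0.05, 4 of the 10 genes against 0.579% of all 15189 genes tested. Of the 10, 9 had lower fitted levels, with a median log2 fold change of -0.94, against 0.01 over all genes. At an unadjusted p under 0.05, 8 of 10 were lower (all but Pold1 and Fen1), against 8.76% of all genes. Pold1 had a log2 fold change of 0.04 ± 0.38, and one of -0.23 ± 0.15 without the library of 9527 mouse 11.

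Rrm2 fell by 1.38 ± 0.23 on the log2 scale (adjusted p = 0.0262). The 3 female 9527+oil mice had 8.14, 7.23 and 8.93 CPM and the 3 male ones 8.20, 5.84 and 6.14 CPM, all below the lowest 9527 mouse of their sex. Rrm1 fell by 0.93 ± 0.15 (adjusted p = 0.0277), to 31.1, 29.4 and 34.2 CPM in female and 27.8, 24.7 and 29.2 CPM in male 9527+oil mice. Prim1 fell by 1.09 ± 0.19 (adjusted p = 0.0312), to 6.26, 5.61 and 6.57 CPM in female and 4.75, 4.12 and 5.45 CPM in male mice. Lig1 fell by 0.95 ± 0.17 (adjusted p = 0.0375), to 18.6, 19.6 and 21.7 CPM in female and 17.9, 14.4 and 16.6 CPM in male mice. For none of these 4 genes did the 9527 and 9527+oil mice overlap in either sex.

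Pola1 (log2 fold change -1.10 ± 0.28, adjusted p = 0.134) and Pcna (-0.65 ± 0.15, adjusted p = 0.0943) also did not overlap in either sex without passing the test. That makes 6 of 10 genes, against 3.09% of all genes, and 7 of 10, Fen1 being the seventh, against 4.75% of all genes when the 4 libraries were left out. Pole (-1.14 ± 0.41), Fen1 (-0.55 ± 0.44) and Rfc5 (-0.51 ± 0.20) had wider errors or smaller differences, and Fen1 had -0.21 without female 9527 mouse 10. The 4 calls depended on the settings and on the mice included. With offsets for GC content Prim1 (adjusted p = 0.0622) and Rrm1 (0.0554) no longer passed, and without the sex term Lig1 (0.0618) did not. Leaving out 1 of the 12 mice at a time left 0 of 10 genes past the threshold in 10 of 12 fits, with a lowest adjusted p of 0.0569 to 0.111. Without female 9527 mouse 11, the library of high mitochondrial share, 9 of 10 passed (all but Pold1), against 6.82% of all genes, and without male 9527 mouse 12 it was 5 of 10, against 0.851%.

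**Figure D3:**
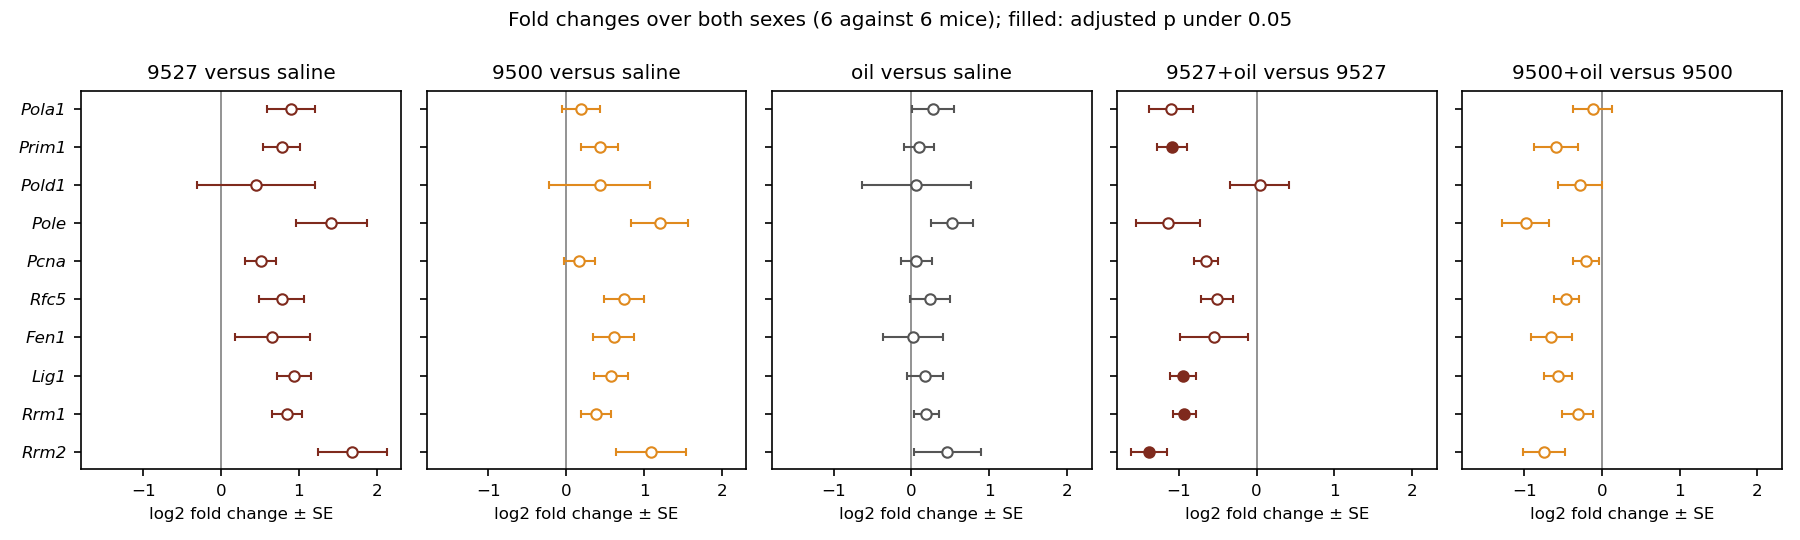
Log2 fold changes with their standard errors (horizontal axes) of the 10 genes over both sexes, 6 against 6 mice, in 5 comparisons, with filled circles at an adjusted p under 0.05. All 10 lie above 0 for 9527, 9500 and oil against saline, 9 of 10 lie below 0 for 9527+oil against 9527, and the 4 filled circles are Prim1, Lig1, Rrm1 and Rrm2.

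The values with 9527+oil lay near those of saline, with log2 fold changes of 5 genes above and 5 below 0, from -0.31 (Prim1) to 0.47 (Pold1), and a median of 0.04. Without female saline mouse 3, 9 of 10 lay above 0, with a median of 0.07. At an unadjusted p under 0.05, 0 of 10 were higher, against 1.05% of all genes, and 0 were lower, against 1.89%. This comparison shares its treated mice with the previous one.

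Corexit 9500 was compared with saline in the same way. All 10 genes had higher fitted levels, with log2 fold changes from 0.17 (Pcna) to 1.20 (Pole) and a median of 0.50, against 0.03 over all genes, but 0 of 10 passed an adjusted p of 0.05 (lowest 0.97), as did 0% of all genes. Of the 10, 5 were higher at an unadjusted p under 0.05 (Pole, Rfc5, Lig1, Rrm2 and Fen1), against 1.29% of all genes. Without female saline mouse 3, Pold1 was the lowest with 0.16 ± 0.15, Pcna had 0.36 ± 0.13 and Pola1 0.39 ± 0.16, the median was 0.52, and 9 of 10 were higher unadjusted, against 3.69% of all genes. With offsets for GC content, Lig1 had a log2 fold change of 0.16 and Fen1 one of 0.37, against 0.58 and 0.61. Pole stood at 14.7, 6.49 and 20.4 CPM in female 9500 mice, all above the saline mice, and at 10.5, 9.77 and 6.20 CPM in male 9500 mice, where the lowest overlapped saline. For Rfc5, 1 of the 10 genes, the 9500 mice lay above every saline mouse in both sexes, as they did for 0.672% of all genes. Rfc5 had 15.2, 9.83 and 12.6 CPM in female 9500 mice against 8.77, 9.45 and 3.38 CPM, and 12.7, 11.3 and 8.27 CPM in male 9500 mice against 7.43, 5.33 and 6.88 CPM, with a log2 fold change of 0.74 ± 0.26. Rrm2 had one of 1.09 ± 0.45, with 16.3, 7.07 and 22.6 CPM in female and 11.7, 12.9 and 7.60 CPM in male 9500 mice.

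With 9500+oil, 10 of 10 genes had lower fitted levels than with 9500 alone, with log2 fold changes from -0.98 (Pole) to -0.12 (Pola1) and a median of -0.52. Without male 9500 mouse 8 the log2 fold change of Pola1 was -0.0029. None passed an adjusted p of 0.05 in edgeR (lowest 0.999), nor did any of all genes. At an unadjusted p under 0.05, 5 of 10 were lower (Pole, Rfc5, Fen1, Lig1 and Rrm2), against 1.37% of all genes. Without 9500+oil mouse 14, Pola1 had a log2 fold change of -0.41 ± 0.17 and Pold1 the smallest, -0.086 ± 0.14, the median was -0.51, and 8 of 10 were lower unadjusted, against 2.07% of all genes. Against saline, 7 genes were above and 3 below 0 with 9500+oil, with a median log2 fold change of 0.08 (7 above 0 and a median of 0.03 without the libraries of high mitochondrial share), and 0 of 10 were higher at an unadjusted p under 0.05, against 0.199% of all genes. Set against each other, 9527 was higher than 9500 in the fitted level of all 10 genes, with a median log2 fold change of 0.35 (0.36 without 9527 mouse 11) and a range from 0.01 (Pold1) to 0.71 (Pola1). Without 9527 mouse 11, Pola1 had a log2 fold change of 0.41 ± 0.19 and Pold1 one of 0.24 ± 0.20. When 1 mouse at a time was left out, 6 to 10 of the genes were higher, with medians from 0.22 to 0.43. None of these differences passed the adjusted threshold (lowest 0.794), and 2 did so unadjusted with all mice included (Pola1 and Rrm1), against 2.1% of all genes.

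Oil alone gave small log2 fold changes over both sexes, from 0.02 (Fen1) to 0.52 (Pole) with a median of 0.18, and 0 of 10 were higher at an unadjusted p under 0.05, against 0.284% of all genes. When 1 mouse at a time was left out, 8 to 10 genes lay above 0, and without both libraries of high mitochondrial share 2 of 10 were higher unadjusted, against 1.69% of all genes. In male mice the median was 0.34, and 4 of 10 were higher at that threshold (Lig1, Rrm2, Pole and Pcna), against 5.75% of all genes. Summed macrophage markers lay at 276 to 437 CPM in male oil mice against 173 to 194 CPM with saline, with Marco, Cd68 and Siglecf, 3 of the 4, without overlap. Summed division markers lay at 76.5 to 129 CPM against 40.7 to 65.7 CPM, with Mki67, Top2a and Ccnb1, 3 of the 5, without overlap, where 7.37% of all genes lay wholly above saline. Their part in the values of the male oil mice was not tested. Lig1 stood at 21.9, 15.8 and 25.7 CPM in male oil mice, all above the 11.6 to 14.7 CPM of male saline mice, and at 17.5, 21.8 and 20.4 CPM in female oil mice, within or below the 19.2 to 31.7 CPM of female saline mice. The difference between the sexes was tested as an interaction. For oil all 10 genes had a higher log2 fold change in male than in female mice, by 0.08 (Pola1) to 0.94 (Lig1), and 1 of 10, Lig1, was so at an unadjusted p under 0.05, against 1.07% of all genes. Without the libraries of high mitochondrial share 2 of 10 were so, against 3.92% of all genes. When 1 mouse at a time was left out, 8 to 10 of the genes had the higher log2 fold change in male mice. The median difference between the sexes then ran from 0.32 to 0.66. Of the 50 interactions of the 10 genes with 5 treatments, 0 passed an adjusted p of 0.05 in edgeR (lowest 0.948), and 1 did so unadjusted.

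Within male mice, 9527 gave a median log2 fold change of 0.91 over the 10 genes, and 9 of 10 (all but Pold1) were higher at an unadjusted p under 0.05, against 7.96% of all genes. None passed an adjusted p of 0.05, as did 0.114% of all genes. Rrm2 came closest, with a log2 fold change of 1.78 ± 0.32 (adjusted p = 0.0696), and without male 9527 mouse 12 the count past the adjusted threshold was 8 of 10, against 1.39% of all genes. The other unadjusted counts in male mice were 6 of 10 for 9500 (background 4.0%), 1 of 10 for 9500+oil, namely Rrm2 (5.19%), and 0 of 10 for 9527+oil (3.54%). Within female mice the median log2 fold change with 9527 was 0.72, and 1 of 10, Rrm1, was higher at an unadjusted p under 0.05, against 0.247% of all genes. The count was 1 of 10 for 9500, namely Pole (0.155%), and 0 of 10 for oil (0.0472%), 9500+oil (0.0135%) and 9527+oil (0.242%). The 4 libraries of high mitochondrial share are all among the female mice. Without them, with 2 saline and 2 9527 mice left, 8 of 10 genes were higher with 9527 in female mice at an unadjusted p under 0.05. The share of all genes was 2.97%.

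In some groups the mice kept much the same order from gene to gene. Male 9527 mouse 11 was the highest of its group for 10 of 10 genes, with a median of 1.30 above the male saline mean on the log2 scale, and mouse 12 was the lowest for 9 of 10, with a median of 0.37. In the same way male 9500 mouse 9 and female 9500 mouse 8 were each the lowest of their group for 9 of 10 genes, with medians of 0.21 and -0.05. Other groups had no such order, and in male 9500+oil mice no mouse was the highest or the lowest for more than 4 genes. Correlation between pairs of the genes, taken over the 36 libraries after centring log2 CPM within sex, had a median r of 0.54 over 45 pairs, from -0.43 (Pola1 and Pold1) to 0.90 (Prim1 and Rrm1). Without the 4 libraries the median was 0.83, and the highest value, 0.95, was that of Pole and Lig1. These correlations carry the differences between treatments. Centred within sex and treatment, the median r was 0.26 over the 36 libraries, with a lowest value of -0.65 (Pola1 and Fen1), and 0.67 without the 4. Over all 36 libraries the genes most like the mean of the 10 were Uhrf1 (r = 0.96), Asf1b (0.94), Cdca3 (0.94), Mcm6 (0.92) and Kntc1 (0.91), out of 15903 genes. Without the 4 libraries they were Uhrf1, Ncapd2 and Mcm6 (each 0.97), Mcm3 (0.96) and Cdca3 (0.95).

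**Figure D4:**
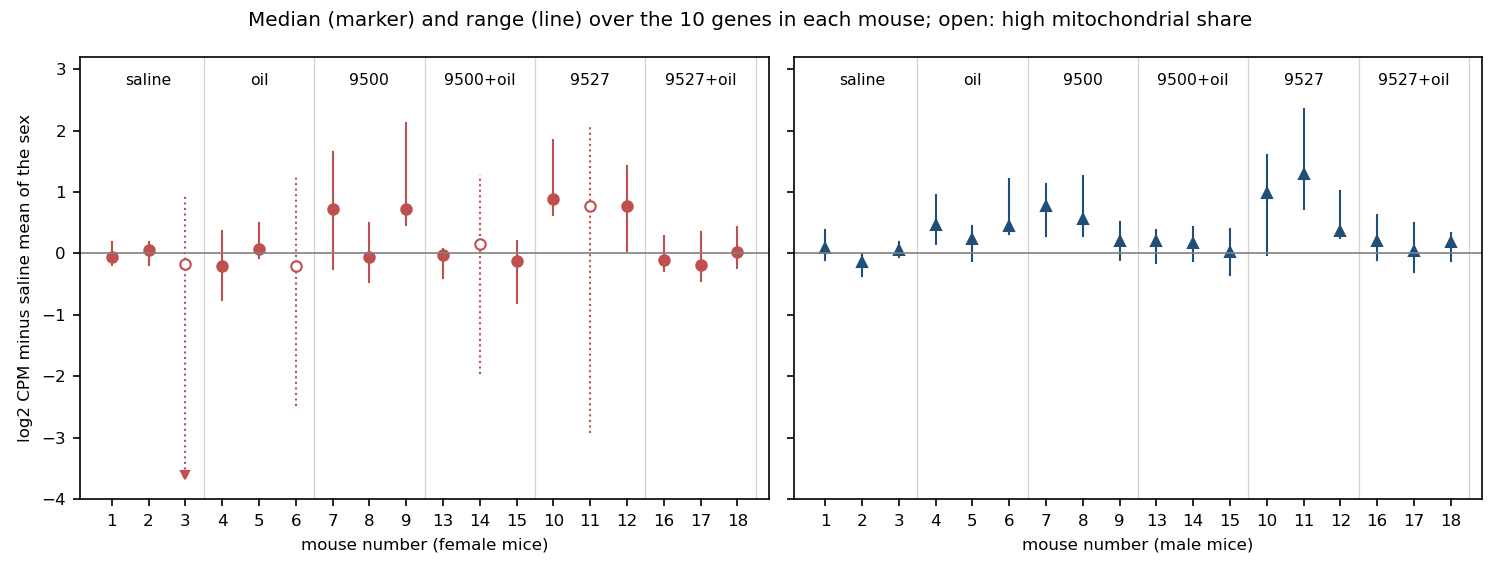
Median (marker) and range (line) over the 10 genes of log2 CPM minus the mean of the saline mice of the sex, without saline mouse 3 in female mice (vertical axis), for each female mouse (left) and male mouse (right), by treatment, with open markers and dotted lines for the 4 libraries of high mitochondrial share and an arrow where Pold1 had 0 counts. The 9527 mice have medians from 0.37 to 1.30, and the 9527+oil mice have medians from -0.19 to 0.20.

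The other genes of the same steps were counted from a list of 35, which holds further polymerase, clamp loader, primer removal, single-strand binding, nucleotide supply and fork protein genes. With 9527 against saline, 31 of 35 had higher fitted levels, with a median log2 fold change of 0.37, 6 of them at an unadjusted p under 0.05 (2.27% of all genes) and 0 past the adjusted one (0.0331%). Without the libraries of high mitochondrial share, 32 of 35 were higher, with a median of 0.42, and 6 passed the adjusted threshold, against 2.25% of all genes. With all mice included, where none passed, the 3 with the smallest p were Wdhd1 (0.87 ± 0.23), Dck (0.66 ± 0.18) and Clspn (2.22 ± 0.65). Wdhd1 ties polymerase alpha to the helicase, and Dck is a kinase of the deoxynucleoside salvage route. Clspn is a fork protein that passes on the checkpoint signal. Without the libraries of high mitochondrial share Dck did not pass (adjusted p = 0.0804). With 9500, 27 of 35 were higher, with a median of 0.23 (28 and 0.24 without female saline mouse 3). At an unadjusted p under 0.05, 2 were higher (1.29% of all genes), and 0 passed the adjusted threshold (0%, lowest 0.97). Without female saline mouse 3, 6 were higher unadjusted (3.69% of all genes) and 0 passed the adjusted threshold (0%). With all mice included, the genes of the list with the smallest p included Clspn (1.68 ± 0.64) and Pola2, a regulatory subunit of polymerase alpha (0.51 ± 0.23). With 9527+oil against 9527, 30 of 35 were lower, with a median of -0.48, 17 of them at an unadjusted p under 0.05 (8.76% of all genes), and 2 passed the adjusted threshold (0.579%). These were Clspn, which fell by 1.78 ± 0.27 (adjusted p = 0.026), and Tyms, thymidylate synthase, which fell by 0.91 ± 0.16 (adjusted p = 0.0316). Without 9527 mouse 11, 30 of 35 were lower, with a median of -0.49, and 18 passed, against 6.82% of all genes.

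The division markers Mki67, Top2a, Cdk1, Ccnb1 and Aurkb, which act in or mark dividing cells, had a median log2 fold change of 1.56 with 9527 against saline, with 5 of 5 higher at an unadjusted p under 0.05 (2.27% of all genes) and 0 past the adjusted one (0.0331%, lowest adjusted p 0.0687, Top2a). Without the libraries of high mitochondrial share, 5 of 5 passed the adjusted threshold (2.25% of all genes), with a median of 1.60. With 9527+oil against 9527, 4 of 5 passed the adjusted threshold (0.579% of all genes), and their log2 fold changes were -1.80 (Ccnb1), -1.78 (Cdk1), -1.55 (Top2a) and -1.48 (Mki67), and without 9527 mouse 11 all 5 passed (6.82% of all genes). The sum over the 5 lay at 187 to 260 CPM in female and 100 to 238 CPM in male 9527 mice, and at 51.8 to 73.6 CPM and 58.2 to 84.1 CPM in the 9527+oil mice of those sexes.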

How the data were processed

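Whole-lung RNA of 36 mice was used. The authors estimated transcript counts with Salmon against GRCm38 transcripts and imported them with tximport, per the methods and the submitters' processing notes, and deposited expected counts (whole numbers already) without normalization, in rows named by gene symbol. How transcripts were joined into genes is not given in the sources used here. Versions and strand settings are not given in the sources used here. Gene positions, GC content and lengths came from GENCODE M21 (GRCm38). Of the rows, 24 named as dates were kept in each of the female and male tables, and 4 rows sharing a name were left out.

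Each comparison was fitted on all genes in edgeR 4.0.16 (R 4.3.3) by quasi-likelihood, with TMM, filterByExpr and Benjamini-Hochberg adjustment, with a 2-sided threshold of 0.05, sex as a term over both sexes, and only the groups compared. A standard error is the log2 fold change divided by the square root of F. CPM use effective library sizes, and log2 CPM a prior count of 2. DESeq2 1.42.0 and limma 3.58.1 were alternatives. The code was tested on simulated data.

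Named were the 10 genes, and of the other lists those past the threshold and the 3 with the smallest p with 9527 and with 9500, and the 5 most alike, except for an item that is not reported here. Genes and lists were chosen with earlier results of these data known. The labels call the fractions WAF where the methods write saline-accommodated, and the route comes from the methods.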

Additional observations from a re-analysis of the deposited data

How the results depend on the processing

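The counts of replication genes past an adjusted p of 0.05 depended on the tool and on the libraries, given here with the share of all genes called. In the comparisons of 9527 and 9500 with saline and of each with its mixture with oil, the direction changed for Pold1 alone. For oil against saline, the 10 genes above 0 became 8 with offsets for GC content, 9 with limma voom and 8 to 10 when 1 mouse was left out. With 9527 against saline over both sexes, 3 of 10 passed with DESeq2 (0.834%) and 3 with all groups in one fit (0.689%), 9 with limma voom and quality weights (5.37%), and 8 without the libraries of high mitochondrial share (2.25%), where the quasi-likelihood test called 0. In male mice 9 of 10 passed for 9527 with DESeq2 (3.93%), 7 with all groups in one fit (1.83%) and 1 with at least 10 counts in every mouse (0.635%), and leaving out 1 mouse gave 0 to 8. For 9500 in male mice DESeq2 called 1 (0.324%). With 9527+oil against 9527, limma voom (10.4%) and the fit without the library of high mitochondrial share (6.82%) each called 9 where 4 were called, and leaving out 1 mouse gave 0 to 9. Pold1 in that comparison changed sign, to -0.15 with limma voom, -0.0025 without the sex term, -0.23 without the library of high mitochondrial share and -0.42 with offsets for GC content, and it ran from -0.23 to 0.29 when 1 mouse was left out. The cause of these differences was not tested. The last 2 settings were added after seeing the data. Of 210 counts under the settings that leave out no single mouse, the other 200 stayed within 1.5 times. Of 480 log2 fold changes with 1 mouse left out, 40 lost their call, 6 gained one and 3 changed sign. Only the 4 genes called for 9527+oil against 9527 had a call to lose, in 12 fits each. No paired analysis was possible because mouse numbers run through the treatments of a sex, so that treated and saline mice share none. Outside the 4 libraries of high mitochondrial share, the lowest count of a replication gene in a mouse was 81 (Prim1).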
